A study of Mus musculus with 18 samples.

Results

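AP-1 is a family of transcription factors that bind DNA as pairs joined by a leucine zipper, and 8 genes of the family and its close relatives were followed in brain microglia: Fos, Fosb, Fosl2, Jun, Junb, Jund, Batf and Maff. They were taken by gene symbol, 8 of the 55414 genes counted, and 7 of the 8 passed the filter on low counts that left 10948 genes for testing. Maff did not pass, with 45 unique molecular identifiers (UMIs) over all 18 libraries. The libraries were labelled as Chd8 knockout (KO) males (n = 5), wild-type (WT) males (n = 5), KO females (n = 4) and WT females (n = 4), and all carry the prefix HX, which is not explained. RNA of purified microglia was measured by bulk MARS-seq, a method that reads the 3' ends of polyadenylated transcripts and tags each captured molecule with a UMI. Chd8 encodes a chromatin remodeler. Age, strain, the altered exons, the number of altered copies and any Cre driver are not stated by the labels, nor is it stated whether a library came from 1 animal or a pool.

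Jun proteins can pair with each other or with Fos proteins, whereas Fos proteins need a Jun partner to bind DNA well. Fos, Fosb, Jun and Junb are immediate early genes, whose transcripts rise within minutes of a signal through MAP kinases and decay soon after. In microglia they respond to activation and also to enzymatic or mechanical dissociation of the tissue, so their level in purified cells can reflect the handling of the sample as well as the state of the cells in the brain. The purification of the cells is not described in the labels.

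Short stretches of the promoters are shown because ATF, CREB and AP-1 pairs recognise related DNA letters in front of these genes. RefSeq promoters (GRCm38.p6, 250 bases before to 50 after each start site) were found for all 8 members, 10 promoters in all, of which 3 belong to Maff. The sequences read 5′ to 3′ on the gene's own strand, and capitals mark the match. The Fos stretch lies at chr12:85473814-85473839 (plus strand), the Jun stretch at chr4:95052250-95052277 (minus strand), the Batf stretch at chr12:85686612-85686637 (plus strand), and the stretches of Maff promoters 2 and 3 at chr15:79347481-79347508 and chr15:79348347-79348374 (plus strand).
Fos: ttccgcccagTGACGTaggaagtcca
Jun: agcctcggggTGACATCAtgggctattt
Batf: tctaacttgtTGACGTttccgcccat
Maff promoter 2: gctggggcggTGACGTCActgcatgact
Maff promoter 3: tggagccatgTGACATCAgtgtttgttc
The letters TGACGT, searched on both strands, were found in 3 of the 10 member promoters, 1 each of Fos, Batf and Maff, and in 7.51% of all 32851 promoters in the table. TGACNTCA, which includes the full CRE letters TGACGTCA, was found in 3 of the 10, 1 of Jun and 2 of Maff, and in 8.83% of all promoters. TGACGTCA itself was found in 1 of the 10, of Maff, and in 1.79% of all promoters, and it overlaps both other patterns. The AP-1 letters TGANTCA, present in 7.81% of promoters, and the CArG box bound by SRF, present in 1.63%, were in no member's window. Sites further than 250 bases before a start site were not searched, so this does not show that a member lacks them. A match is a run of letters and not a shown binding site.

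Library depth and make-up set the limits for every value. Total UMI counts were 2022957 to 9149144 in male KO, 2050624 to 3441103 in male WT, 435838 to 3433078 in female KO and 458075 to 1841384 in female WT libraries. The number of reads per UMI divided the libraries into 3 classes: a low class of 8 libraries at 1.79 to 1.89, a middle class of 6 at 2.94 to 3.12, and a high class of 4 at 5.52 to 7.26. The high class held 3 female WT libraries, 1 of female KO and none from males, while the low class held 4 male KO, 3 male WT, 1 female KO and no female WT library. What sets these classes is not stated by the labels. All 12 microglial marker genes examined were detected in every group, with a summed level of 27461 to 37262 counts per 1000000 UMIs (CPM). Chd8 ranged from 96.4 to 116 CPM in male KO and from 135 to 167 CPM in male WT libraries, and from 116 to 139 CPM in female KO and from 132 to 186 CPM in female WT libraries. Its log2 fold change for KO over WT was -0.54 ± 0.10 in males (SE, edgeR quasi-likelihood fit, Benjamini-Hochberg adjusted p = 0.00171). In females it was -0.44 ± 0.12 and did not pass (edgeR adjusted p = 0.0547). Tags from outside an altered stretch of Chd8 are still counted, and its level alone therefore does not settle the genotype of a library. Whether libraries came from separate animals is not stated, so p-values reflect library-to-library spread, which may be technical. In bulk RNA, more cells that express a gene and more RNA per cell cannot be told apart.

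Of the 7 tested members 5 were called higher in male than in female microglia in WT and 4 in KO, and within females 2 Jun family genes were called higher in KO than in WT. In the same 3 comparisons 6.94%, 2.83% and 0.849% of all tested genes were called higher. In WT, Fos, Fosb, Jun, Junb and Jund were 2.94 to 4.78 times higher in males than in females, while Batf and Fosl2 did not pass. In KO, Fos, Jun, Junb and Jund were 1.52 to 2.23 times higher in males, and Fosb, Batf and Fosl2 did not pass. Between KO and WT females, Jun was 2.32 times and Jund 1.91 times higher in KO. No member passed between KO and WT males. The plot of values by library shows these groups. CPM here are UMI counts scaled by library size and TMM factors.

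**Figure D1:**
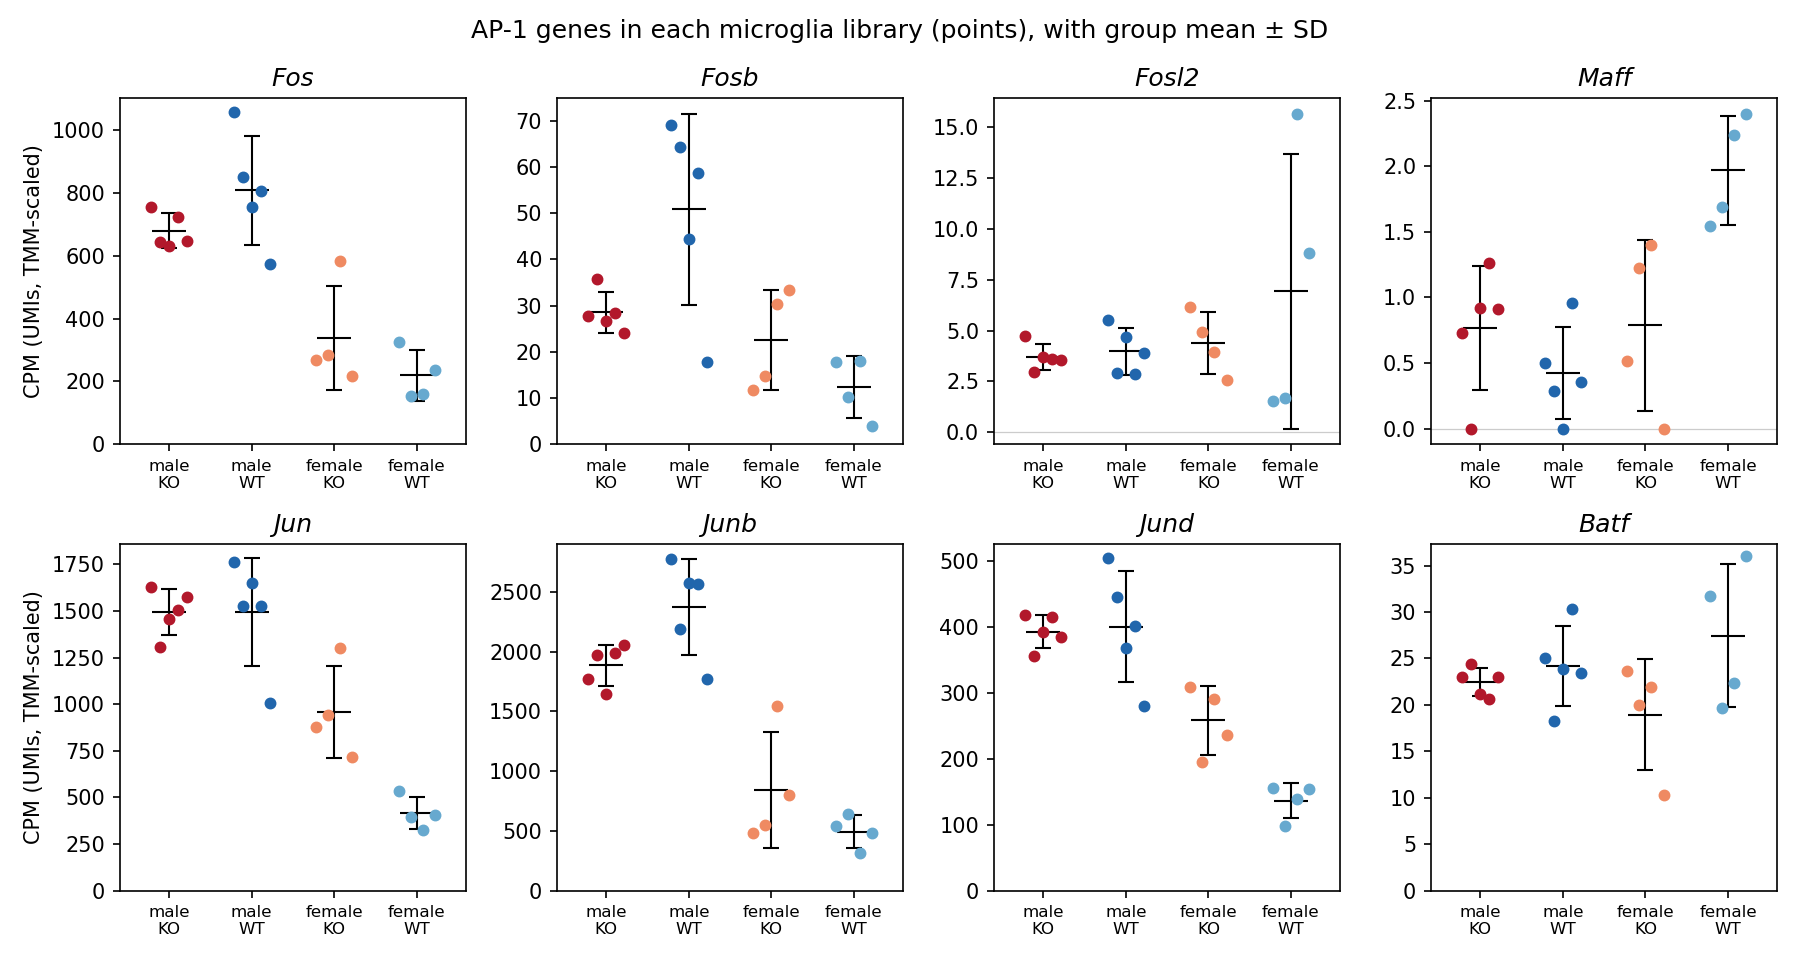
CPM of the 8 AP-1 genes in every library (vertical axis, linear), by group along the horizontal axis, with bars for the group mean ± SD (n = 5 in each male group, n = 4 in each female group). For Jun the 4 female WT libraries lie at 327 to 532 CPM, below the 4 female KO libraries at 715 to 1303 CPM, while male KO and male WT libraries overlap.

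The Jun family was described first. Jun (ENSMUSG00000052684, GRCm38 chromosome 4, 95049034 to 95052222, minus strand) encodes c-Jun, the main AP-1 substrate of the JNK kinases. It had 877, 941, 1303 and 715 CPM in female KO replicates 1, 7, 16 and 33. It had 532, 393, 327 and 404 CPM in female WT replicates 30, 31, 34 and 39. Every female KO library lay above every female WT library. The means were 959 ± 248 CPM in KO and 414 ± 85.6 CPM in WT females (SD, n = 4 each), a log2 fold change of 1.21 ± 0.18 (SE) for KO over WT (edgeR quasi-likelihood fit, Benjamini-Hochberg adjusted p = 0.00264). The value was 1.17 ± 0.15 among middle-class libraries, 2 KO against 1 WT (edgeR adjusted p = 0.0167), and 0.82 ± 0.27 among high-class libraries, 1 KO against 3 WT (edgeR adjusted p = 0.205). In fits within a class the spread is pooled over the groups of that class, and a library that is alone in its group has no spread of its own and is assumed to vary like the others. The low class held no female WT library. Fitted to the 8 female libraries alone, Jun had a similar log2 fold change of 1.24 ± 0.21 and did not pass (edgeR adjusted p = 0.0851).

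In males Jun did not pass between genotypes. It had 1628, 1305, 1459, 1505 and 1575 CPM in male KO replicates 6, 9, 17, 36 and 40. It had 1764, 1527, 1652, 1526 and 1008 CPM in male WT replicates 10, 11, 13, 14 and 37. The groups overlapped, with WT replicate 37 below every other male library. The log2 fold change for KO over WT was -0.00069 ± 0.16 (edgeR adjusted p = 0.999), and it was 0.064 ± 0.15 within the low class, 4 KO against 3 WT, and -0.22 ± 0.14 within the middle class, 1 KO against 2 WT. The KO effect on Jun in females minus that in males was 1.21 ± 0.24 on the log2 scale (edgeR adjusted p = 0.0427). Among 7 members tested Jun was the 1 that passed this test, where 0.0457% of all tested genes passed with a positive difference. This difference had an adjusted p above 0.05 when any 1 of 13 of the 18 libraries was left out, with values from 1.03 to 1.36 over the 18 omissions. It kept its call without female KO replicate 1, female KO replicate 33, female WT replicate 31, male KO replicate 40 or male WT replicate 37. It also did not pass within the middle class (1.39 ± 0.21, edgeR adjusted p = 0.0547).

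Jund (ENSMUSG00000071076, chromosome 8, 70698949 to 70700616, plus strand) encodes JunD, the most evenly expressed of the Jun proteins. It had 309, 195, 291 and 237 CPM in female KO replicates 1, 7, 16 and 33. It had 156, 97.8, 139 and 154 CPM in female WT replicates 30, 31, 34 and 39. The female groups did not overlap, and KO replicate 7 was the KO library nearest to WT. Jund rose in female KO by a log2 fold change of 0.93 ± 0.18 (edgeR quasi-likelihood fit, Benjamini-Hochberg adjusted p = 0.00986). It was 0.71 ± 0.26 within the middle class (edgeR adjusted p = 0.29) and 0.92 ± 0.31 within the high class (edgeR adjusted p = 0.213), so that it passed in neither class. With the class as a covariate it also did not pass (0.82 ± 0.22, edgeR adjusted p = 0.0708), nor with females fitted alone (edgeR adjusted p = 0.135).

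Male Jund levels overlapped between genotypes. They were 417, 356, 393, 414 and 384 CPM in male KO replicates 6, 9, 17, 36 and 40. They were 505, 445, 369, 402 and 279.9 CPM in male WT replicates 10, 11, 13, 14 and 37. WT replicate 37 was again the lowest male library. The KO over WT log2 fold change was -0.025 ± 0.15 in males (edgeR adjusted p = 0.971), 0.069 ± 0.15 within the low class and -0.24 ± 0.24 within the middle class. The female effect minus the male effect was 0.96 ± 0.24 and did not pass (edgeR adjusted p = 0.103).

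Junb (ENSMUSG00000052837, chromosome 8, 84974484 to 84978718, minus strand) encodes JunB, an immediate early Jun protein that can oppose c-Jun at some genes. It had 484, 546, 1543 and 798 CPM in female KO replicates 1, 7, 16 and 33. It had 539, 638, 313 and 479 CPM in female WT replicates 30, 31, 34 and 39. Female KO replicate 16 stood well above the other female libraries, and the groups overlapped. Junb did not pass between KO and WT females, with a log2 fold change of 0.77 ± 0.27 (edgeR quasi-likelihood fit, Benjamini-Hochberg adjusted p = 0.136), 0.11 ± 0.17 within the middle class and 0.72 ± 0.31 within the high class. Without female KO replicate 16 the log2 fold change was 0.29 ± 0.20. It passed with no filter on low counts (edgeR adjusted p = 0.000134). In that fit, also given for Fos and Fosb below, a member's counts are the same as in the main fit. Only the set of genes behind the scaling, the estimate of the spread and the adjustment differs, so the lower p rests on no further data.

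Among males Junb had 1767, 1973, 1649, 1985 and 2052 CPM in male KO replicates 6, 9, 17, 36 and 40. It had 2777, 2191, 2571, 2566 and 1770.2 CPM in male WT replicates 10, 11, 13, 14 and 37. 4 male WT libraries lay above all male KO libraries, and WT replicate 37 lay among them. The log2 fold change was -0.33 ± 0.23 for KO over WT males (edgeR adjusted p = 0.512) and did not pass, with -0.35 ± 0.14 within the low class and -0.26 ± 0.16 within the middle class. The 3' end of Junb overlaps that of the peroxiredoxin gene Prdx2 on the other strand by 351 bases, and no strand setting of the counting is stated, so reads in that stretch could be credited to either gene or dropped. Prdx2 itself had log2 fold changes of -0.15 ± 0.12 for KO over WT in females and -0.05 ± 0.11 for male over female in WT, and passed in neither. Jun and Jund also overlap antisense genes, Junos by 689 bases and Gm11175 by 919 bases, which held 356 and 65 UMIs over all libraries.

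In the Fos family, Fos and Fosb passed between the sexes in WT, and no gene passed between genotypes in either sex. Fos (ENSMUSG00000021250, chromosome 12, 85473890 to 85477273, plus strand) encodes c-Fos, the prototype immediate early factor. It had 267, 285, 583 and 219 CPM in female KO replicates 1, 7, 16 and 33. It had 327, 153, 161 and 235 CPM in female WT replicates 30, 31, 34 and 39. KO replicate 16 was the highest female library, and the other 3 KO libraries lay within the range of WT. Fos did not pass between KO and WT females (log2 fold change 0.64 ± 0.26, edgeR quasi-likelihood fit, Benjamini-Hochberg adjusted p = 0.211), was 0.23 ± 0.16 within the middle class and 0.068 ± 0.40 within the high class, and passed with no filter on low counts (edgeR adjusted p = 0.00241). Without KO replicate 16 it was 0.25 ± 0.22. In males Fos had 754, 644, 632, 724 and 649 CPM in male KO replicates 6, 9, 17, 36 and 40. It had 1057, 852, 755, 805 and 574 CPM in male WT replicates 10, 11, 13, 14 and 37. These groups overlapped, with the highest and the lowest male value both in WT. The male log2 fold change was -0.25 ± 0.22 for KO over WT (edgeR adjusted p = 0.639), -0.20 ± 0.16 within the low class and -0.36 ± 0.15 within the middle class.

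Fosb (ENSMUSG00000003545, chromosome 7, 19302696 to 19310051, minus strand) encodes FosB, whose shorter splice form, DeltaFosB, cannot be told apart from the full form by 3' counts. It had 27.7, 35.8, 26.7, 28.5 and 24.1 CPM in male KO replicates 6, 9, 17, 36 and 40. It had 69.1, 64.3, 44.4, 58.7 and 17.7 CPM in male WT replicates 10, 11, 13, 14 and 37. 4 of 5 male WT libraries lay above all male KO libraries, and WT replicate 37 lay below them. The log2 fold change for KO over WT males was -0.85 ± 0.29 and did not pass (edgeR quasi-likelihood fit, Benjamini-Hochberg adjusted p = 0.092). It passed without WT replicate 37 (-1.06 ± 0.24, edgeR adjusted p = 0.0119), with males fitted alone (edgeR adjusted p = 0.0361) and with no filter on low counts (edgeR adjusted p = 0.000516). Within the low class it was -0.68 ± 0.30 (edgeR adjusted p = 0.183) and within the middle class -0.77 ± 0.23 (edgeR adjusted p = 0.225).

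In females Fosb had 11.8, 14.7, 30.3 and 33.5 CPM in female KO replicates 1, 7, 16 and 33. It had 17.8, 10.1, 17.9 and 4.00 CPM in female WT replicates 30, 31, 34 and 39. Counts behind these values were low, from 13 to 108 UMIs in KO and 5 to 23 in WT, and the groups overlapped. The female log2 fold change of 0.85 ± 0.46 for KO over WT did not pass (edgeR adjusted p = 0.389), and was 1.75 ± 0.49 within the middle and 1.24 ± 0.59 within the high class. The female KO effect minus the male KO effect was 1.70 ± 0.54 (edgeR adjusted p = 0.302). Fosl2 (ENSMUSG00000029135, chromosome 5, 32135801 to 32157842, plus strand) encodes Fra-2, a Fos relative without the strong activation domain of c-Fos. It was counted with 1 to 35 UMIs per library. It lay at 2.99 to 4.74 CPM in male KO and 2.87 to 5.51 CPM in male WT, and at 2.57 to 6.18 CPM in female KO and 1.55 to 15.7 CPM in female WT. Its highest value, in female WT replicate 34, rested on 7 UMIs. Fosl2 passed in none of the 6 contrasts, with log2 fold changes for KO over WT of -0.18 ± 0.52 in females and -0.070 ± 0.39 in males.

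Batf and Maff are small basic leucine zipper proteins that lack an activation domain of their own. Batf (ENSMUSG00000034266, chromosome 12, 85686669 to 85709087, plus strand) pairs with Jun proteins and, in immune cells, works with IRF factors. It had 23.7, 19.96, 21.9 and 10.3 CPM in female KO replicates 1, 7, 16 and 33. It had 31.7, 19.7, 22.4 and 36.02 CPM in female WT replicates 30, 31, 34 and 39. The female groups overlapped, and the lowest value, in KO replicate 33, rested on 4 UMIs. Male levels were 20.7 to 24.4 CPM in KO and 18.2 to 30.3 CPM in WT. Batf did not pass for KO over WT in females (log2 fold change -0.43 ± 0.22, edgeR quasi-likelihood fit, Benjamini-Hochberg adjusted p = 0.351) or in males (-0.11 ± 0.17, edgeR adjusted p = 0.826). Maff (ENSMUSG00000042622, chromosome 15, 79346621 to 79359076, plus strand), a small Maf protein, was counted with 0 to 9 UMIs in male KO, 0 to 3 in male WT, 0 to 5 in female KO and 1 to 3 in female WT libraries. It had 0 UMIs in male KO replicate 9, male WT replicate 13 and female KO replicate 33, where a count of 0 allows up to 1.49, 1.01 and 7.72 CPM (3 counts per library, counting error only). Maff lay at 0 to 1.27 CPM in male KO, 0 to 0.957 CPM in male WT, 0 to 1.40 CPM in female KO and 1.55 to 2.401 CPM in female WT. The female WT values were the highest, on 1 to 3 UMIs each, and Maff was not tested.

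Over both sexes with equal weight, Jun rose in KO by 0.61 ± 0.12 (edgeR quasi-likelihood fit, Benjamini-Hochberg adjusted p = 0.00254) and Jund by 0.45 ± 0.12 (edgeR adjusted p = 0.0173) on the log2 scale. These averages combine a female effect with a male effect close to 0. Of the 7 tested members 2 were called higher and 0 lower in female KO. These 2 also had no overlap between KO and WT females, against 2.48% of all genes, and 0.849% of all 10948 genes were called higher and 1.83% lower. In male KO 0 of 7 were called, against 6.24% of all genes in either direction, 3.37% higher and 2.87% lower. At an unadjusted p under 0.05 there was 1 of 7, Fosb, against 1987 of all 10948 genes. DESeq2 also called 0 of 7 in males. Averaged over the sexes 2 of 7 were called higher, against 4.37% of all genes. The median log2 fold change of the 7 members was 0.77 in females and -0.11 in males, against 0.011 and -0.0084 over all genes tested. The plot of KO effects sets both sexes side by side.

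**Figure D2:**
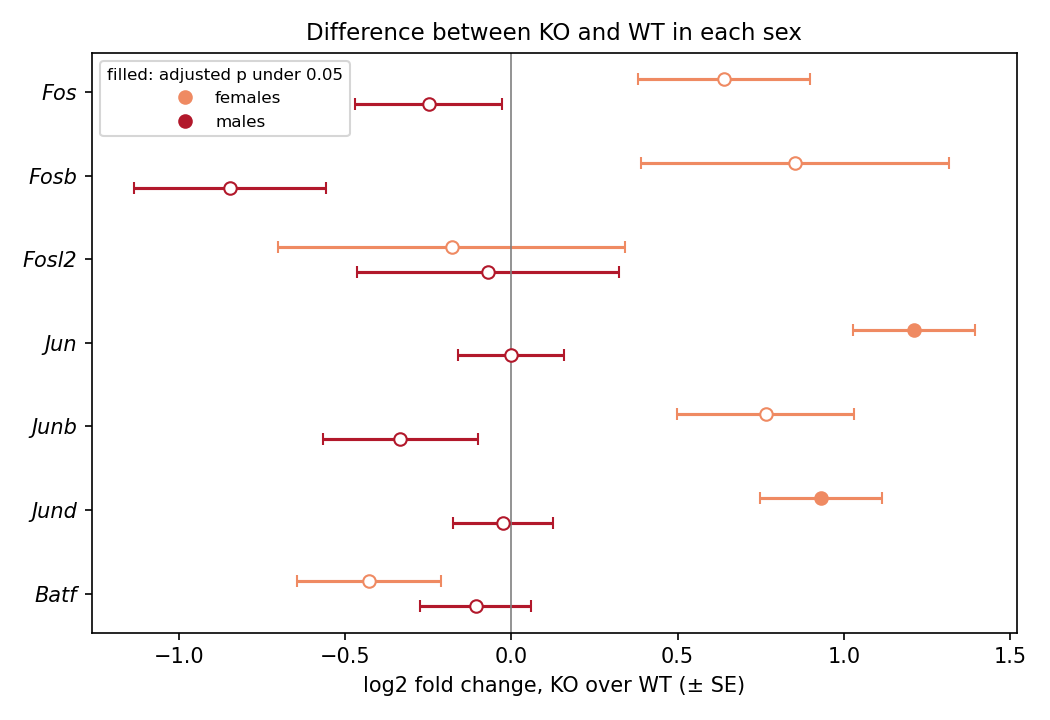
Log2 fold change of KO over WT with its SE (horizontal axis) for the 7 tested members, in females and in males, with filled points where the adjusted p is under 0.05. Jun at 1.21 and Jund at 0.93 in females are the filled points, and no male point is filled.

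Whether male and female microglia differed was asked within each genotype. In WT, Jun was at 1495 ± 290.1 CPM in males (SD, n = 5) and 414 ± 85.6 CPM in females (SD, n = 4), Junb at 2375 ± 399 CPM in males and 492 ± 136 CPM in females, and Fos at 809 ± 174 CPM in males and 219 ± 80.6 CPM in females. Every male WT library lay above every female WT library for Fos, Jun, Junb and Jund. Fosb overlapped, because male WT replicate 37 at 17.7 CPM lay just below female WT replicates 30 and 34 at 17.8 and 17.9 CPM. The log2 fold changes for male over female in WT were 2.26 ± 0.27 for Junb (edgeR quasi-likelihood fit, Benjamini-Hochberg adjusted p = 9.63e-06), 2.13 ± 0.41 for Fosb (edgeR adjusted p = 0.00125) and 1.87 ± 0.25 for Fos (edgeR adjusted p = 4.47e-05). They were 1.84 ± 0.18 for Jun (edgeR adjusted p = 1.31e-06) and 1.56 ± 0.18 for Jund (edgeR adjusted p = 5.23e-06). Of the 7 tested members 5 were called higher in male WT and 0 lower, where 6.94% of all genes were called higher and 10.3% lower. 4 of 7 members had no overlap with male WT higher, against 8.81% of all genes. Batf (-0.20 ± 0.20) and Fosl2 (-0.45 ± 0.49) did not pass.

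The sexes and the reads-per-UMI classes are mixed unevenly, so the same contrast was read within the middle class, which held 2 male and 1 female WT library. There the log2 fold changes for male over female were 1.93 for Jun, 2.32 for Junb, 1.47 for Jund, 1.83 for Fos and 3.94 for Fosb, and all 5 passed (edgeR adjusted p = 0.000261 to 0.0249, with the lone female library assumed to vary like the other groups). The low class held no female WT library and the high class no male library. With the class as a covariate in the fit of all 18 libraries the 5 genes passed too, with log2 fold changes of 1.40 to 3.07. All 5 calls stood in each of 31 distinct alternative fits, including 18 that left out 1 library each. Some of these 18 left out a KO library, which enters this contrast only through the filter, scaling and spread shared by all libraries.

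Among KO microglia the male libraries were higher for 4 members. Junb was at 1885 ± 169.7 CPM in KO males (SD, n = 5) and 843 ± 486 CPM in KO females (SD, n = 4), a log2 fold change of 1.16 ± 0.25 (edgeR quasi-likelihood fit, Benjamini-Hochberg adjusted p = 0.0093). Fos was at 681 ± 54.8 CPM in males and 339 ± 166 CPM in females (0.98 ± 0.24, edgeR adjusted p = 0.0177). Jun (0.63 ± 0.17, edgeR adjusted p = 0.0279) and Jund (0.60 ± 0.16, edgeR adjusted p = 0.0308) passed by smaller margins. For these 4 genes every male KO library lay above every female KO library, against 4.69% of all genes, and 2.83% of all genes were called higher in male KO. Fosb (0.44 ± 0.35) and Batf (0.12 ± 0.19) did not pass. Of these 4 calls 2 stood when female KO replicate 1, female KO replicate 33, male KO replicate 6 or male KO replicate 40 was left out. Without female KO replicate 7 none of the 4 calls stood (edgeR adjusted p = 0.0564 to 0.139), with log2 fold changes of 0.48 to 1.00.

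Within the middle class, where male KO replicate 9 alone stood against 2 female KO libraries and had no spread of its own, Junb (1.95 ± 0.15), Fosb (1.42 ± 0.26) and Fos (1.24 ± 0.14) passed (edgeR adjusted p = 0.000913, 0.0281 and 0.00622), while Jun (0.54 ± 0.14) and Jund (0.52 ± 0.24) did not. Within the low class, 4 male KO libraries against female KO replicate 16 alone, the log2 fold changes for male over female were 0.26 for Junb, 0.23 for Fos, 0.23 for Jun, 0.45 for Jund and -0.20 for Fosb, and none passed. Female KO replicate 16, the 1 female library of the low class, had the highest female level of Fos, Jun and Junb, while that of Jund was in female KO replicate 1 and that of Fosb in female KO replicate 33. The difference in KO effect between females and males given above is the same quantity as the difference in sex effect between WT and KO, and among the members it passed for Jun alone.

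**Figure D3:**
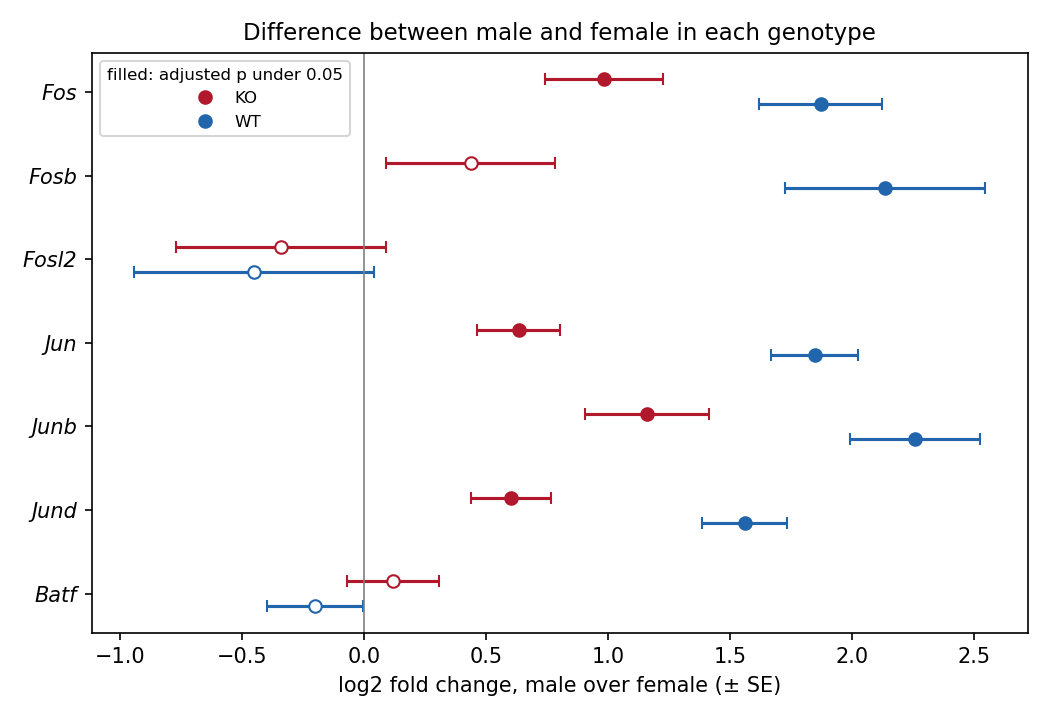
Log2 fold change of male over female with its SE (horizontal axis) for the 7 tested members, in KO and in WT, with filled points where the adjusted p is under 0.05. The 5 filled WT points run from 1.56 for Jund to 2.26 for Junb, and the 4 filled KO points from 0.60 for Jund to 1.16 for Junb.

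**Figure D4:**
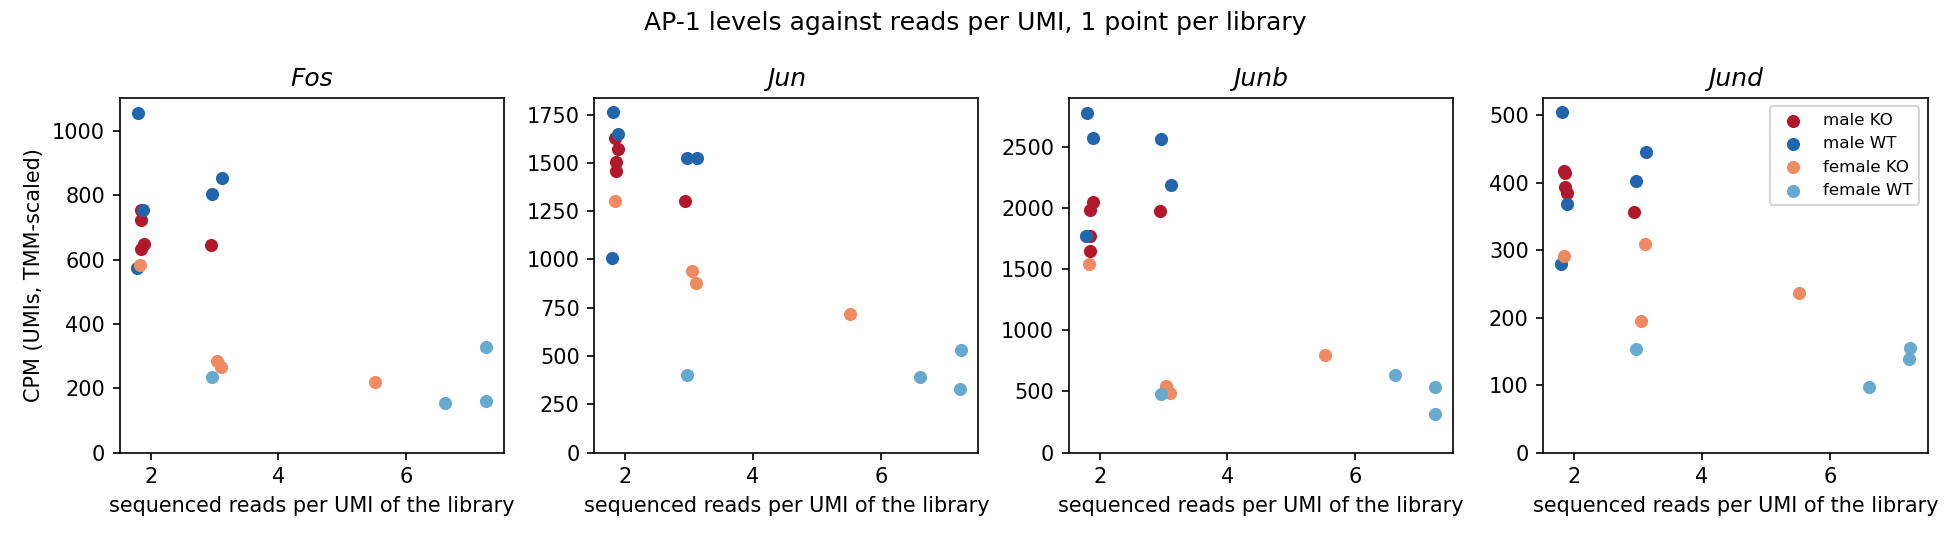
CPM of Fos, Jun, Junb and Jund (vertical axis) against sequenced reads per UMI (horizontal axis), 1 point per library coloured by group. The 4 libraries of the high class, from 5.52 reads per UMI, are all female. The middle class near 3 reads per UMI holds libraries of all 4 groups, and there the male libraries lie above the female ones for each gene. In the low class, female KO replicate 16 lies above male WT replicate 37 for Fos, Jun and Jund, and below the other male libraries. These levels are 583 against 574, 1303 against 1008 and 291 against 279.9 CPM. For Junb it lies below every male library of that class.

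The group means of Jun and Jund had the same order, with both male groups on top, female KO next and female WT lowest. Male KO and male WT did not differ beyond their spread, and female KO overlapped male WT, whose replicate 37 lay below the highest female KO library for both genes. For Jun the means were 1494 ± 124 CPM in male KO, 1495 ± 290.1 CPM in male WT, 959 ± 248 CPM in female KO and 414 ± 85.6 CPM in female WT. For Jund they were 393 ± 25.04 CPM, 400.1 ± 84.4 CPM, 258 ± 51.9 CPM and 136 ± 26.9 CPM in male KO, male WT, female KO and female WT. For Fos and Junb the 2 female groups were neighbours that did not pass. The spread was narrower in male KO, where the SD was 6.37% of the mean for Jund, 8.30% for Jun, 8.06% for Fos and 9.00% for Junb, and wider in male WT at 21.1%, 19.4%, 21.6% and 16.8% for the same genes. For all 5 of Fos, Fosb, Jun, Junb and Jund, replicate 10 was the highest and replicate 37 the lowest male WT library.

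Other factors with a basic leucine zipper were read from a list of 23. In female KO 0 of 21 tested were called higher and 0 lower against WT, where 0.849% of all genes were called higher and 1.83% lower. At an unadjusted p under 0.05 there were 2 of 21, against 1717 of all 10948 genes. The median log2 fold change was -0.034. The lowest p-values belonged to Cebpa, a myeloid lineage factor (0.37 ± 0.12, edgeR adjusted p = 0.114), and the repressor Bach1 (-1.14 ± 0.43, edgeR adjusted p = 0.17), which did not pass. In male KO 2 of 21 tested were called higher and 2 lower, against 3.37% of all genes higher and 2.87% lower. Batf3, a relative of Batf known from dendritic cell development, averaged 188 ± 4.30 CPM in KO and 139.8 ± 10.5 CPM in WT males (log2 fold change 0.43 ± 0.097, edgeR quasi-likelihood fit, Benjamini-Hochberg adjusted p = 0.00777). Atf3, a stress-induced Jun partner, rose by 0.52 ± 0.15 (edgeR adjusted p = 0.0344). Atf4, the effector of the integrated stress response, fell to 311 ± 27.2 CPM in KO, against 426 ± 25.6 CPM in WT (-0.45 ± 0.11, edgeR adjusted p = 0.00955). The macrophage factor Maf fell as well (-0.45 ± 0.13, edgeR adjusted p = 0.0365). Male against female, 2 of 21 tested were called higher and 0 lower in WT, where 6.94% of all genes were called higher and 10.3% lower. In KO 1 of 21 was called higher and 0 lower, where 2.83% of all genes were called higher.

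Genes upstream of AP-1 did not pass between genotypes. Of 29 MAP kinases, their kinases and the factors Elk, Srf and Mef2, 27 were tested. In female KO 0 were called, against 0.849% of all genes higher and 1.83% lower. In male KO 0 were called, against 6.24% of all genes in either direction. At these shares few calls would be expected among 27 genes. At an unadjusted p under 0.05 there were 1 in females and 2 in males, against 1717 and 1987 of all 10948 genes. Mapk14, the stress kinase p38 alpha, had the lowest p in females (0.28 ± 0.12, edgeR adjusted p = 0.248), and the factor Elk1 in males (-0.62 ± 0.25, edgeR adjusted p = 0.17). In male WT against female WT 4 of 27 were called higher and 0 lower, against 6.94% and 10.3% of all genes. A list of MAP kinase phosphatases and feedback inhibitors also held genes that are not regulators of MAP kinases, such as Zfp36. Of its 13 tested genes 2 were called higher in female KO and 0 lower, against 0.849% and 1.83% of all genes. Zfp36, which degrades immediate early and cytokine transcripts, averaged 888 ± 312 CPM in KO and 363 ± 192 CPM in WT females (1.29 ± 0.27, edgeR quasi-likelihood fit, Benjamini-Hochberg adjusted p = 0.0127). Dusp6, an ERK phosphatase, rose by 0.99 ± 0.27 (edgeR adjusted p = 0.0478). In male KO 0 of 13 were called, against 6.24% of all genes. At an unadjusted p under 0.05 there was 1 of 13, against 1987 of all 10948 genes. In male WT against female WT 7 of 13 were called higher, against 6.94% of all genes. The median log2 fold change there was 0.96, against -0.013 over all genes.

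Other immediate early and dissociation genes came from a list of 26, of which 21 were tested. In female KO 3 of 21 tested were called higher and 0 lower, against 0.849% and 1.83% of all genes. The median log2 fold change of the 21 was 0.66, against 0.011 over all genes tested. Egr1, an immediate early zinc finger factor, averaged 176 ± 50.3 CPM in KO and 83.5 ± 14.1 CPM in WT females (1.12 ± 0.21, edgeR quasi-likelihood fit, Benjamini-Hochberg adjusted p = 0.00829). The cytokine inhibitor Socs3 (0.73 ± 0.17, edgeR adjusted p = 0.0236) and the stress phosphatase subunit Ppp1r15a (0.91 ± 0.23, edgeR adjusted p = 0.0369) rose too. In male KO 0 of 21 were called, against 6.24% of all genes. At an unadjusted p under 0.05 there were 4 of 21, against 1987 of all 10948 genes. In male WT against female WT 12 of 21 were called higher and 1 lower, against 6.94% and 10.3% of all genes. This list was known to move in these data before it was read here, so it is no independent evidence. Known AP-1 target genes came from a list of 26, of which 20 were tested. In female KO 13 of the 20 had a positive and 7 a negative log2 fold change, with a median of 0.069. At an unadjusted p under 0.05 there were 5 of 20, in both directions, against 1717 of all 10948 genes. After adjustment 0 of 20 were called higher and 1 lower, against 0.849% and 1.83% of all genes. The 1 that fell was Mmp9, a metalloproteinase also abundant in neutrophils (-2.29 ± 0.61, edgeR adjusted p = 0.0426). In the same contrast 6 of 11 tested neutrophil markers fell, against 1.83% of all genes. In male KO, where no member was called, 4 of 20 targets were called higher, against 3.37% of all genes, and 1 lower, against 2.87%. Among them were the urokinase receptor Plaur (0.87 ± 0.17, edgeR adjusted p = 0.00306), the chemokine Ccl3 (0.69 ± 0.20, edgeR adjusted p = 0.0438) and the secreted protein Spp1 (1.48 ± 0.43, edgeR adjusted p = 0.0402), which rose, and the autophagy receptor Sqstm1, which fell (-0.39 ± 0.092, edgeR adjusted p = 0.00958). In male KO 8 of 10 markers of border-associated macrophages rose as well, against 3.37% of all genes. The part of these cells and of neutrophils in the target genes was not tested. Male WT against female WT had 1 of 20 targets called higher and 6 lower, against 6.94% and 10.3% of all genes.

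The genes whose levels were most like each member were sought over the 18 libraries by Pearson's r of log2 CPM, as a description. Closest to Fos was Dusp1, the immediate early MAP kinase phosphatase, with r = 0.97, and 0.87 after each group's mean was subtracted. Btg2 (r = 0.94) and Rhob (r = 0.93) came next. Closest to Jun were Egr1 (r = 0.95), Efhd2 (r = 0.94) and Zfp36 (r = 0.93), and to Jund Dusp1, Socs3 and Egr1 (r = 0.93, 0.93 and 0.93). Among the genes closest to Fosb were Egr1 and Rhob (r = 0.86 and 0.82). Closest to Junb were Ddah2, Eif3g and Basp1 (r = 0.96, 0.95 and 0.95), none of them in the lists of immediate early genes or of their inhibitors. The libraries share groups, classes and depth, and the values of r within groups were lower for each of these 14 pairs, at 0.50 to 0.87. Batf was closest to Iqce, Zfp296 and Tbc1d10c (r = 0.89, 0.88 and 0.86, and 0.85, 0.86 and 0.81 within groups). Spearman's rank correlation of these pairs was lower, at 0.73, 0.66 and 0.51, and female KO replicate 33 had the lowest Batf level of all libraries. Fosl2 was closest to Rsl24d1, Stat5b and Son (r = 0.89, 0.86 and 0.83). Within groups these values were higher, at 0.90, 0.89 and 0.84. Female WT replicate 34 had the highest Fosl2 level, but the UMI counts of Fosl2 are too few to read more from this.

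**Figure D5:**
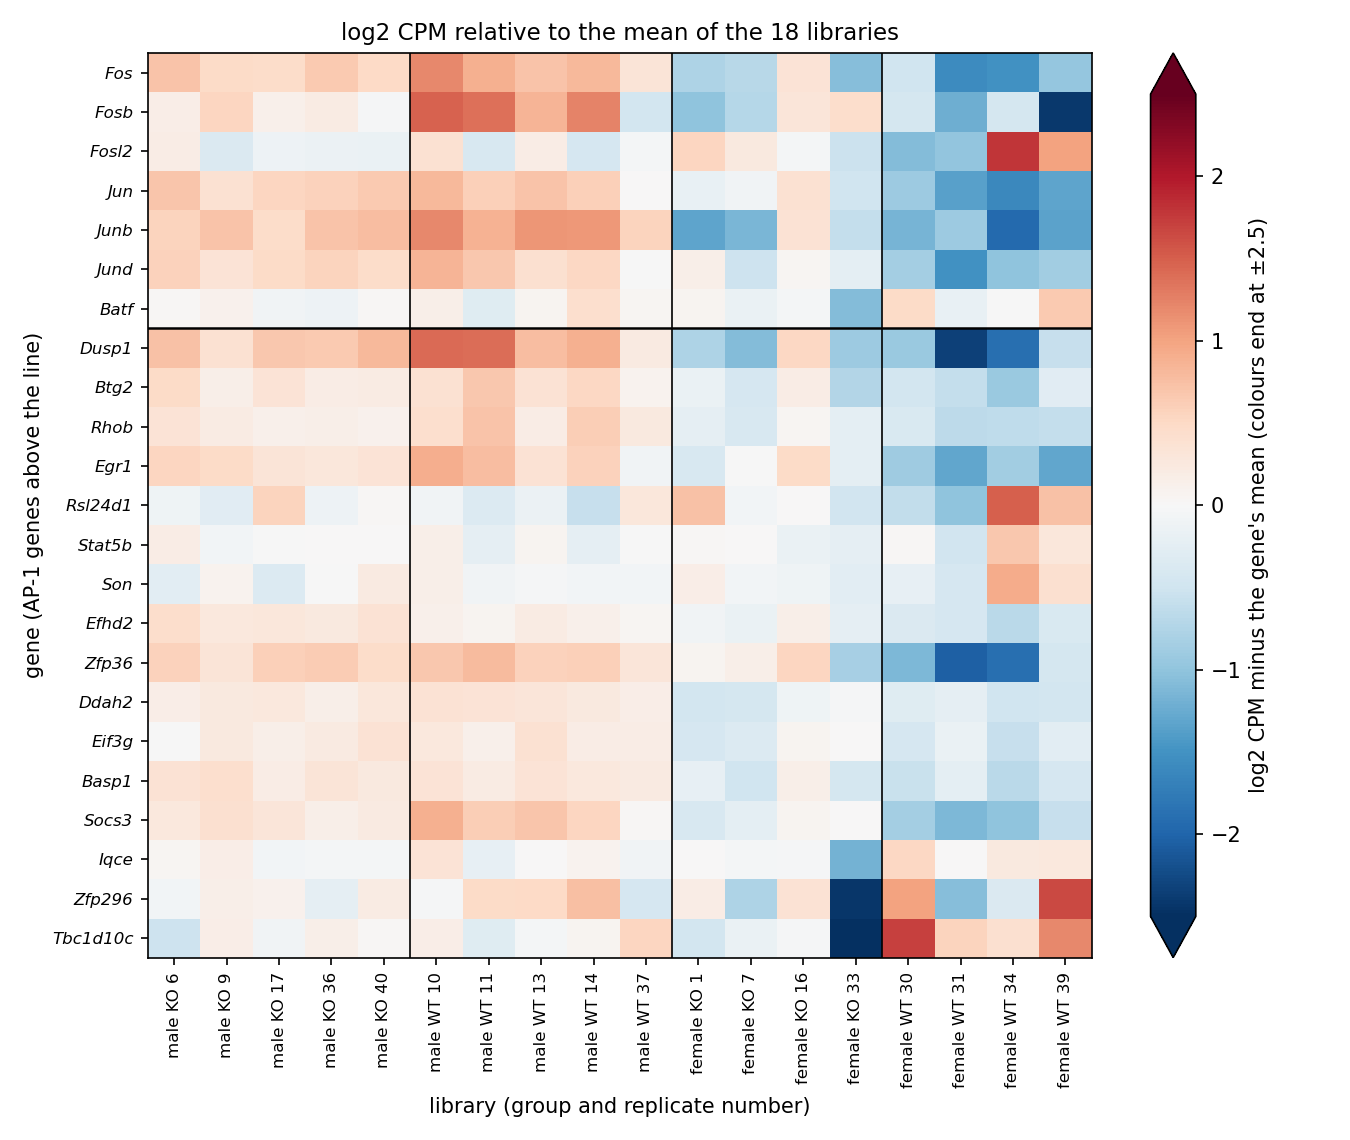
Log2 CPM minus the gene's mean over the 18 libraries (colour) for the 7 tested members, above the line, and genes most like them, below it, with 1 column per library grouped as male KO, male WT, female KO and female WT. Fos, Fosb, Jun, Junb and Jund are highest in male WT replicate 10, and Fosl2 is highest in female WT replicate 34.

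Transcripts of other cell types varied with the same groups. Summed levels of 12 neutrophil markers were 327 to 634 CPM in male KO, 316 to 1151 in male WT, 994 to 5302 in female KO and 2162 to 15696 in female WT, with every marker detected in each group, and those of 10 monocyte markers were 63.8 to 126 CPM in male KO, 73.1 to 102 in male WT, 154 to 309.7 in female KO and 287 to 879.8 in female WT, where Vcan alone was at 0 in all female WT libraries. Of the tested neutrophil markers 6 of 11, and of the monocyte markers 5 of 9, fell in female KO against female WT, the contrast in which Jun and Jund rose. Of all genes 1.83% fell there. In male WT against female WT 11 of 11 neutrophil, 8 of 9 monocyte and 9 of 10 border-associated macrophage markers were lower, against 10.3% of all genes. Sums of 10 border-associated macrophage markers were 183 to 293 CPM in male KO, 39.3 to 73.8 in male WT, 179 to 339 in female KO and 174 to 367 in female WT, with none at 0 in every library of a group. Their part in the AP-1 differences was not tested. Without female WT replicate 30, which held the highest neutrophil sum, Jun in females was 1.37 ± 0.20 and Jund 1.02 ± 0.20 on the log2 scale for KO over WT, with edgeR adjusted p = 0.00417 and 0.0224. The other 3 female WT libraries still held 2162 to 7793 CPM of neutrophil markers. Markers of neurons, astrocytes and oligodendrocytes were highest in male KO replicates 6, 9 and 17, and without these 3 libraries 0 of 7 members were called in male KO, as with them, while for male over female in KO 0 of 7 were called, against 4 with them. In this last fit the log2 fold changes were 1.28 for Junb, 1.01 for Fos, 0.70 for Jun and 0.65 for Jund, and 104 of all genes were called, against 777 with the 3 libraries. The part of neuronal and glial RNA in these values was not tested.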

How the data were processed

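RNA of purified mouse microglia was measured in 18 libraries, barcoded at reverse transcription, pooled and amplified by T7 transcription, per the labels' protocols. Gene counts were deposited by the authors as 2 unscaled tables, with and without UMI correction. Cutadapt, STAR, HTSeq and mm10 are listed in the submitters' processing notes, while versions, annotation, strand setting and UMI method are not given there. Of 34 library columns per table, 16 belong to no sample analysed here and were left out. Of 55414 gene identifiers, 52081 were given symbols from GENCODE M21 (GRCm38, the assembly of mm10).

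UMI counts were filtered with filterByExpr, scaled by TMM and fitted with 1 mean per group over all 18 libraries in edgeR 4.0.16 (R 4.3.3, quasi-likelihood test), at a common BCV (biological coefficient of variation) of 17.8%. Benjamini-Hochberg adjustment ran over all 10948 tested genes, and a gene was called under 0.05. The SE is the log2 fold change divided by the square root of F. Marker sums were scaled by the library total alone. The script was tested on simulated data. Alternatives were DESeq2 1.42.0, RLE or no scaling factors, other filters, read counts, subsets of libraries, and the reads-per-UMI class (split at 2.4 and 4) as covariate or stratum. No replicate numbers are shared between groups.

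Named were all 8 members and, of each other list and KO contrast, up to 4 called genes of lowest p, or 2 of lowest p where none was called; from those, the text gives the female and male contrasts. Likeness used 3 genes per member, on log2 CPM with a prior count of 2, and 1 of these genes is not reported here. Members, lists and tests were chosen with earlier results of these data known, and the motifs TGACNTCA and TGACGT were added after the first search.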

Additional observations from a re-analysis of the deposited data

Results flagged for a closer look

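Jun was flagged because its KO effect differed between the sexes in the test of the difference itself, with 1.21 ± 0.24 on the log2 scale for the female effect minus the male effect (edgeR adjusted p = 0.0427). Every female KO library lay above every female WT library, while male KO and male WT overlapped. The adjusted p lay between 1.81e-06 and 0.34 in 30 distinct other fits, and 17 of these were above 0.05. No library stood apart from its group by Dixon's criterion in 28 sets of 1 tested member and 1 group, where chance gives about 1 in 20.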

How the results depend on the processing

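The cause of each change given here was not tested. The number of all genes called moved between fits as well. When 1 library was left out, it ran from 71 to 680 for KO against WT in females (293 in the main fit). It ran from 2 to 84 for the difference in KO effect (26) and from 207 to 1782 for male against female in KO (777). The counts of members below are therefore not read as particular to AP-1. KO against WT in females, 2 of 7 members were called, against 0 with the contrast's own libraries alone, the high class alone; 1 with the reads-per-UMI class as covariate, the middle class alone, the high class left out; 4 with no filter on low counts; leaving out 1 library gave 2 to 2. KO against WT in males, 0 of 7 members were called, against 1 with no filter on low counts, the contrast's own libraries alone; leaving out 1 library gave 0 to 1. KO against WT averaged over both sexes, 2 of 7 members were called, against 0 with the middle class alone; 1 with the reads-per-UMI class as covariate, male KO replicates 6, 9 and 17 left out, the high class left out; leaving out 1 library gave 2 to 2. KO effect in females minus KO effect in males, 1 of 7 members were called, against 0 with the reads-per-UMI class as covariate, male KO replicates 6, 9 and 17 left out, female WT replicate 30 left out, the middle class alone, the high class left out; 2 with DESeq2; 5 with no filter on low counts; leaving out 1 library gave 0 to 1. Male against female in KO, 4 of 7 members were called, against 0 with the contrast's own libraries alone, male KO replicates 6, 9 and 17 left out, the low class alone; 1 with the reads-per-UMI class as covariate; 2 with read counts, libraries under 1000000 UMIs left out; leaving out 1 library gave 0 to 4. Male against female in WT, 5 of 7 were called in each of 31 distinct alternatives, where leaving out 1 library gave 5 to 5. Each of the 18 libraries was left out in turn, also those of groups outside a contrast, which enter it only through the shared filter, scaling and spread. Log2 fold changes that changed sign belonged to members that did not pass. Signs were compared after rounding to 2 decimals, so values that round to 0 are not listed as changed. Among these were Jun, KO against WT in males (-0.00069, and -0.11 to 0.066 when 1 library was left out). Another was Fosb, KO against WT averaged over both sexes (0.0032, and -0.18 to 0.18 when 1 library was left out). Fosl2, KO against WT in females (-0.18) was 0.15 with read counts, 0.37 with libraries under 1000000 UMIs left out, -0.61 to 0.30 when 1 library was left out. Jund, KO against WT in males (-0.025) was 0.027 with library totals without TMM, 0.076 with read counts, 0.069 with the low class alone, 0.0061 with male KO replicates 6, 9 and 17 left out, -0.12 to 0.072 when 1 library was left out. Fosl2, KO against WT in males (-0.070) was 0.057 with the middle class alone, -0.17 to 0.053 when 1 library was left out. Batf, KO against WT in males (-0.11) was 0.021 with the middle class alone. Fosl2, KO against WT averaged over both sexes (-0.12) was 0.078 with read counts, 0.15 with libraries under 1000000 UMIs left out, -0.34 to 0.12 when 1 library was left out. Junb, KO against WT averaged over both sexes (0.22) was -0.078 with the middle class alone, -0.019 to 0.33 when 1 library was left out. Fos, KO against WT averaged over both sexes (0.20) was -0.062 with the middle class alone. Fosl2, KO effect in females minus KO effect in males (-0.11) was 0.15 with read counts, 0.44 with libraries under 1000000 UMIs left out, -0.54 to 0.37 when 1 library was left out. Fosl2, male against female in KO (-0.34) was 0.027 with read counts. Fosb, male against female in KO (0.44) was -0.20 with the low class alone. Batf, male against female in KO (0.12) was -0.0054 with the low class alone. Fosl2, male against female in WT (-0.45) was 0.18 with read counts, 0.039 with libraries under 1000000 UMIs left out, -0.88 to 0.033 when 1 library was left out. Batf, male against female in WT (-0.20) was 0.050 with read counts. Counts of all genes called, 293 in females and 683 in males, ranged from 0 to 680 in females and from 95 to 1209 in males over the alternatives. The within-class fits with 1 library on a side, the fit without the high class and the fit scaled without immediate early genes were chosen after seeing the data. No paired analysis was possible because every library has a replicate number of its own. Depth limits Maff, Fosl2, Fosb and Batf in female KO replicate 33 and female WT replicate 34, which hold 435838 and 458075 UMIs.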

Other observations

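The mix of AP-1 transcripts within a library also varied. The ratio of Junb to Jun UMIs was 1.09 to 1.51 in male KO, 1.44 to 1.76 in male WT, 0.551 to 1.18 in female KO and 0.959 to 1.62 in female WT libraries. Female KO replicates 1 and 7, both of the middle reads-per-UMI class, had the lowest ratios, at 0.551 and 0.580. The ratio of Fos to Jun UMIs was 0.412 to 0.494 in male KO, 0.457 to 0.599 in male WT, 0.303 to 0.448 in female KO and 0.390 to 0.614 in female WT. In 3 of 4 female KO libraries it lay between 0.303 and 0.306, below every other library. These ratios were chosen after the values were seen and were not tested. A ratio of 3' counts compares libraries and is not a ratio of proteins.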
